A study of Homo sapiens with 24 samples.

Results

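The m6A peaks on the zinc finger genes of human chromosome 19 were examined across 6 cell populations. The genes were the protein-coding genes of GENCODE release 44 on chromosome 19 whose symbol is ZNF followed by digits, which gave 249 of 20046 protein-coding genes. A peak was counted for a gene when the deposited list named that gene for it and the peak overlapped its exons on the same strand. By this rule the genes held 769 of the 36659 hPSC peaks, 721 of the 32680 DE peaks, 607 of 29083 for PP, 518 of 31519 for hILO, 671 of 43312 for WT PP and 742 of 55219 for A5-KO PP.

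The study profiled N6-methyladenosine (m6A), the most abundant internal modification of mRNA, during the differentiation of human pluripotent stem cells toward pancreatic islet cells. In m6A-seq, RNA fragments precipitated with an antibody against m6A (IP) are sequenced beside the fragments before precipitation (input), and a stretch with more IP than input is called a peak. The 24 libraries formed 12 groups of 2, so that each population had paired IP and input groups. All cells came from MEL1 INSGFP/W, a human embryonic stem cell line that carries GFP at the insulin gene. The first batch held undifferentiated hPSC, then DE (definitive endoderm), PP (pancreatic progenitors) and finally hILO (human islet-like organoids), sampled from the same differentiation scheme, with mRNA and a SYSY antibody. The second batch held wild-type pancreatic progenitors (WT PP) and progenitors without ALKBH5 (A5-KO PP), an enzyme that removes m6A, with total RNA, a Millipore antibody and another library kit. The knockout was made by CRISPR-Cpf1 cutting in the first exon of ALKBH5. ALKBH5 itself carried 4 peaks (WT PP) and 5 (A5-KO PP), which says nothing about its level or its protein. Stages were compared inside the first batch only, and the knockout with its wild type inside the second, since RNA, antibody and kit differ between batches.

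C2H2 zinc finger proteins are the largest family of human transcription factors. Each finger is a short fold held by a zinc ion between cysteines and histidines, and fingers follow each other in an array joined by a nearly constant linker. Many members also carry a KRAB domain, through which TRIM28 and the methyltransferase SETDB1 are recruited to form heterochromatin, often on transposable elements. Many of these genes lie in tandem clusters on chromosome 19 that arose by duplication, and the whole finger array is typically encoded by the last exon. That architecture matters for m6A, because the mark is known to gather in long internal exons and around stop codons and is thinned out near splice sites.

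The gene models followed this plan. An array, taken as the stretch from the first to the last match of the C2H2 pattern in the longest coding isoform, was found in 247 genes, and it lay wholly within the last exon in 239 of them (96.8%). The arrays held a median of 12 fingers and between 1 and 36, the most in ZNF208. The last exon had a median of 3242 nt in these genes and 1244 nt in all other protein-coding genes. It made up a median of 87.5% of the transcript against 51.7%.

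The linker sequences are shown because they are the most repeated letters of these transcripts and often hold a match to DRACH, the 5-base motif at which m6A is deposited (D stands for any base but C, R for a purine and H for any base but G). The linker pattern was found 1393 times in 213 of the genes, and 77.5% of the copies held AAACC, a DRACH match. In the copies printed here from the GRCh38 genome, 5′ to 3′ in the sense of the transcript, capitals mark that match.
Linker 1 by frequency, 189 copies in 49 genes: actggagagAAACCctac
Linker 2 by frequency, 145 copies in 45 genes: actggagagAAACCttac
Linker 3 by frequency, 115 copies in 57 genes: actggagagAAACCctat
Linker 4 by frequency, 52 copies in 20 genes: actggtgagAAACCctat
Linker 5 by frequency, 49 copies in 35 genes: actggagagAAACCttat
A frequent linker with no DRACH match, 23 copies in 17 genes: actggagagaagccctat

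Then 2 kinds of sites within the arrays were told apart by their letters, AAACC and DRACH matches that hold GGAC, the core with the strongest known preference of the methyltransferase. Of the DRACH matches in the arrays, 33.3% were AAACC and 7.43% held GGAC. A stretch of 252 nt is printed to show a linker match that recurs in the next finger as AAACC, while the finger after it has another DRACH spelling there, AAACT. It lies in the array of ZNF224 on the plus strand of GRCh38, chr19:44107352-44107603, within a peak of all 6 lists, and capitals mark AAACC.
ZNF224: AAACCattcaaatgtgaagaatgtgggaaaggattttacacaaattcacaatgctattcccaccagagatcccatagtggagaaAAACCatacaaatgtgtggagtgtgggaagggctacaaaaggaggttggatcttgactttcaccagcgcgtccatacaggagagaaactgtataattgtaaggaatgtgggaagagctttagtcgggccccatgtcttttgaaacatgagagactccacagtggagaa

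Windows of 61 nt around a GGAC match that lay in a peak of all 6 lists are printed for the genes with the most peaks and the genes of known role where the whole window also lay inside the array, 1 per gene. Capitals mark the DRACH match, and coordinates are GRCh38.
ZNF91, chr19:23359748-23359808, minus strand: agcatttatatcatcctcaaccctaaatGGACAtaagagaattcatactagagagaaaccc
ZNF160, chr19:53068412-53068472, minus strand: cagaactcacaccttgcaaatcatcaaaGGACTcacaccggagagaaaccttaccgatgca
ZNF814, chr19:57873761-57873821, minus strand: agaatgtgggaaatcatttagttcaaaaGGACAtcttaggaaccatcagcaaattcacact
ZNF224, chr19:44108097-44108157, plus strand: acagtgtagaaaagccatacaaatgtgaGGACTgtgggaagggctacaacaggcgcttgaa
ZNF274, chr19:58212862-58212922, plus strand: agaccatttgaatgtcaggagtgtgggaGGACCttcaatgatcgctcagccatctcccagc

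Counting every peak that named them, chromosome 19 zinc finger genes had a peak more often than protein-coding genes at large, while with peaks naming a single gene the excess went beyond counting error in PP only. In hPSC 188 of the 249 genes had 1 or more peaks (75.5%, Wilson 95% interval 69.8 to 80.4%), beside 58.1% of all protein-coding genes. In DE 190 genes had a peak (76.3%, against 54.8% of all), in PP 177 (71.1%, against 49.9%) and in hILO 171 (68.7%, against 55.6%). In WT PP 190 genes had a peak (76.3%, against 61% of all) and in A5-KO PP 210 (84.3%, against 68%). The share was above that of all genes in each list, and the lowest of the lower bounds was 62.7%, in hILO. With single-gene peaks alone, the members' counts were 122, 123, 115, 108, 124 and 131 genes from hPSC to A5-KO PP. These are 49.0%, 49.4%, 46.2%, 43.4%, 49.8% and 52.6%, beside 46.5%, 43.9%, 39.6%, 44.1%, 48.8% and 54.9% of all protein-coding genes counted the same way. The Wilson interval of the members then held the share of all genes in every list but PP (40.1 to 52.4%, beside 39.6%). It was not particular to chromosome 19. Of the 266 ZNF genes on other chromosomes 83.5%, 80.5%, 78.9%, 78.6%, 86.5% and 90.2% had a peak in the same order of lists, whereas the other 1227 genes of chromosome 19 reached between 43.8% and 58.2%. With single-gene peaks the ZNF genes of other chromosomes still stood at 65.0%, 63.2%, 60.9%, 60.2%, 67.7% and 69.2%, above the members in each list. These intervals cover counting error only, because each population has a single list called on its libraries together, and no value per library was used. A gene without a peak may be unmethylated or too weakly expressed to be called, and in bulk samples fewer cells of a type and less RNA per cell cannot be told apart.

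Most of the genes were marked throughout when every peak that named them was counted. With single-gene peaks only 108 genes (43.4%) had a peak in hILO, beside 44.1% of all protein-coding genes. By that count most members were thus not marked in every list. The numbers below count every peak. A peak in all 6 lists was held by 157 genes (63.1%), against 35.1% of all protein-coding genes and 67.3% of ZNF genes on other chromosomes. Within the stages, 160 genes had a peak in all 4 and 56 in none. Only ZNF527 had a peak in hPSC alone among the stages and only ZNF578 in DE alone, and no gene had one in PP alone or in hILO alone. In none of the 6 lists did 31 genes have a peak. The matching counts by stage and of genes without a peak were not made over all protein-coding genes, so these numbers describe the members only.

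The clusters along the chromosome differed. Genes less than 500 kb apart formed 20 clusters, 8 of them with 10 or more genes. In the cluster nearest the long-arm telomere (57.2 to 58.5 Mb, 43 genes) the numbers of genes with a peak were 43, 43, 41 and 37 from hPSC to hILO, and 42 and 42 for WT PP and A5-KO PP. In the cluster next to the centromere (19.7 to 24.1 Mb, 37 genes), which holds ZNF91 and ZNF93, the counts were 17, 17, 15, 15, 16 and 27. The cluster at 11.5 to 12.6 Mb (26 genes) had 13, 13, 14, 12, 15 and 18, and the one at 51.6 to 53.6 Mb (40 genes) had 33, 34, 31, 30, 36 and 36. In the distal cluster at least 37 of 43 genes were thus marked in each list, whereas in the pericentromeric cluster at most 27 of 37 were.

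Peaks came in numbers. Among genes with a peak, 2 or more were held by 169 of 188 at the hPSC stage (89.9%), 170 of 190 at DE (89.5%), 157 of 177 at PP (88.7%) and 143 of 171 at hILO (83.6%), and by 168 of 190 for WT PP (88.4%) and 168 of 210 for A5-KO PP (80%). For all protein-coding genes the shares were 67.5%, 64.5%, 63.2%, 63.9%, 72.4% and 71.1%, and for ZNF genes of other chromosomes 90.5%, 84.6%, 86.7%, 83.7%, 92.2% and 89.6%. The intervals of the members and of those genes overlapped in every list but A5-KO PP. The mean number of peaks per gene with a peak was 4.19, 3.89, 3.54 and 3.14 along the stages, and 3.61 for WT PP and 3.64 for A5-KO PP. The order of the stages depends on the calling threshold. Of the members' peaks 97.3% had p below 1e-05 in hILO, against 60.6% in hPSC, 64.4% in DE and 56.3% in PP. With every list held to that p, 170, 172, 152 and 171 genes had a peak along the stages and 75.9%, 77.9%, 73.7% and 82.5% of them had 2 or more, so hILO was no longer the lowest. These p-values stand among the read columns, which were out of step with their peaks through most of each list, as described below. The cut can therefore keep or drop peaks by the values of their neighbours. Over all protein-coding genes with a peak the mean number was between 2.55 and 3.20. When neighbours closer than 100 nt were joined, the share of genes with 2 or more was between 66.7% and 80%, since some marked stretches are listed as several short peaks.

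The last exon held nearly all of these peaks. By the midpoint on the longest coding isoform, 670 of 726 placed peaks lay in the last exon at the hPSC stage (92.3%, 90.1 to 94.0%), 627 of 674 at DE (93.0%), 550 of 582 at PP (94.5%) and 474 of 510 at hILO (92.9%), against 556 of 609 for WT PP (91.3%) and 605 of 681 for A5-KO PP (88.8%, 86.3 to 91.0%). The last exon made up between 86.4% and 87.1% of the length of the same transcripts. The share of peaks was thus above the share of length in each list by a few percentage points. The excess was least in A5-KO PP, where the interval held the share of length (86.4%). Peaks covered 33.2% of the bases of last exons and 10.8% of other exons in hPSC, 30.4% and 7.76% in DE, 24.8% and 5.83% in PP, and 29.5% and 7.83% in hILO. For WT PP the values were 47.6% and 9.16%, and for A5-KO PP 41.3% and 14.7%. The ratio of the former to the latter was 3.09, 3.91, 4.25, 3.77, 5.20 and 2.82, while over all protein-coding genes it was between 1.14 and 1.57 and over ZNF genes of other chromosomes between 1.30 and 1.58. The other genes of chromosome 19 were nearer to the members, with 2.11, 2.53, 1.87, 1.97, 2.56 and 2.68, the last close to the 2.82 of the members in A5-KO PP.

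Within the last exon most peaks lay on the coding part. The array, 26.3% of the transcript length in hPSC, held 323 of 725 peaks there (44.6%, 41.0 to 48.2%), and its share was 42.4%, 44.8% and 44.2% at the later stages, 47.4% for WT PP and 44% for A5-KO PP. The sequence after the stop codon, 51.0% of the length in hPSC, held 29.7% of the peaks there and between 28.4% and 32.1% elsewhere. Per kb, the array had 1.56 peaks in hPSC and between 1.22 and 1.36 in the other lists, and the stretch after the stop codon had between 0.430 and 0.537. The short part of the last exon ahead of the array was denser than the array in hPSC, DE and PP and close to it in hILO. It had 1.72, 1.64, 1.57 and 1.20 peaks per kb from hPSC to hILO, and was less dense in the second batch, with 0.915 and 1.09. This part also takes in untranslated sequence where the start codon lies in the last exon, so it is not purely coding. The coding part after the array, under 2% of the length, was the densest in the first batch, with 1.89, 2.27, 2.28 and 1.64 peaks per kb, on 20 to 29 peaks a list. The array itself was covered by peaks over 50.2%, 45.2%, 36.2% and 44.9% of its bases along the stages, and over 75.6% for WT PP and 62.4% for A5-KO PP. Peaks of the second batch were wider, with medians of 275 nt (WT PP) and 225 nt (A5-KO PP) against 175 to 200 nt in the first, so the coverage of the batches was not compared. Along the array each of 5 equal parts held between 14.2% and 25% of the array peaks of a list. The last part held more than the first at each stage, with 20.4% against 17.6% in hPSC and 25% against 19.6% in PP, and less in WT PP (20.8% against 21.9%) and A5-KO PP (19.7% against 21.7%), differences that were not tested.

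The motif content of the peaks differed from that of other genes. DRACH matches were 21.8 per kb inside member peaks and 18.0 per kb outside in hPSC, a ratio of 1.21, and the ratio was between 1.18 and 1.25 in the other lists, beside 1.21 to 1.28 over all genes. GGAC gave a ratio of 1.09, 1.00, 1.04, 1.03, 0.865 and 0.902 from hPSC to A5-KO PP, beside between 1.39 and 1.64 over all genes. AAACC gave 1.90, 1.95, 1.83, 1.93, 3.00 and 2.29, beside 1.29 to 1.36. Taken over whole transcripts, then, peaks on chromosome 19 zinc finger genes held more AAACC per kb than the rest of the transcript, while GGAC was between 1.00 and 1.09 times as dense in the first batch and less dense in the second. Peaks and AAACC both lie in the array, and the comparison inside the array read differently.

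Inside the arrays, it was the GGAC sites that lay in peaks more often than the array bases around them in the first batch. In hPSC 187 of 267 GGAC sites were in a peak (70.0%, 64.3 to 75.2%), while 49.6% of array bases were. In DE 59.6% of GGAC sites (53.6 to 65.3%) compared with 44.9% of bases, in PP 48.1% (42.2 to 54.1%) compared with 35.9%, and in hILO 59.5% (53.2 to 65.5%) compared with 43.7%. AAACC sites lay in peaks as often as the bases did, with 48.7% (46.0 to 51.4%), 46.2%, 36.4% and 45.5% along the stages. The other DRACH sites were between the 2 kinds, with 58.2%, 51.7%, 41.8% and 49.4%. In the second batch the kinds were close together. WT PP had 80.6% of GGAC sites, 79.6% of AAACC sites and 75.6% of bases in peaks, and A5-KO PP had 63.4%, 64.0% and 59.9%. Over the 155 genes with an array and a peak in all 6 lists, 36.7% of GGAC sites (80 of 218, 30.6 to 43.3%), 24.9% of AAACC sites (267 of 1074) and 24.6% of array bases were in a peak of every list. Sites of a gene share peaks, so these intervals, which treat sites as independent, are too narrow, and a match in a peak of this width does not show which base was methylated. Very long peaks enter these shares too. The array of ZNF780A was covered whole in every list through a peak of 7152 exonic nt that named 3 genes.

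**Figure D1:**
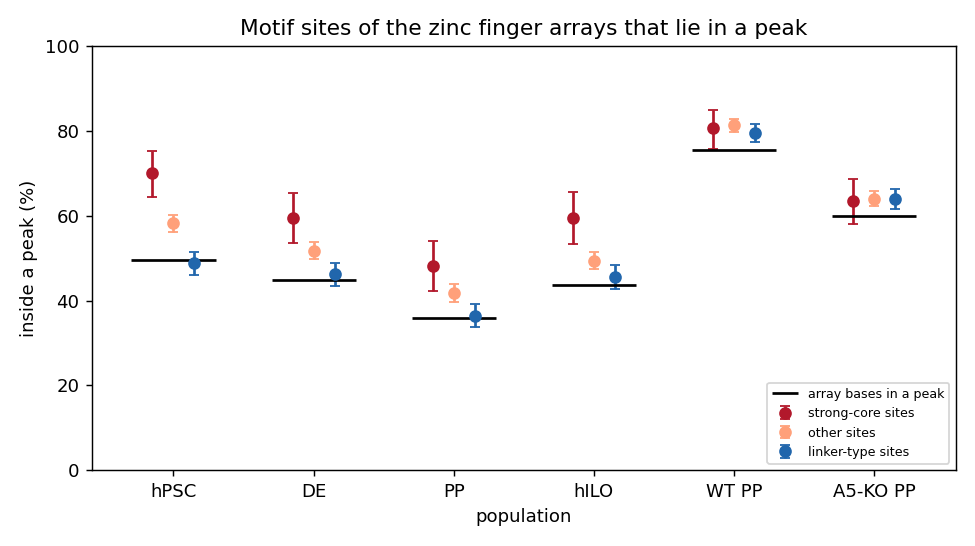
Share of motif sites of the zinc finger arrays that lie inside a peak (vertical axis, percent) in each population, with Wilson 95% intervals as bars. Strong-core sites (red) are DRACH matches holding GGAC, linker-type sites (blue) are AAACC, and black lines give the share of array bases inside a peak. In the first 4 populations the red points sit above the black lines and the blue points on them.

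The genes with the most peaks were ZNF814, ZNF544, ZNF91, ZNF160 and ZNF480. ZNF814, in the distal cluster, had 15, 18, 5 and 6 peaks along the stages, 10 for WT PP and 8 for A5-KO PP. Its array of 23 fingers was covered over 70.1%, 58.0%, 15.4%, 14.3%, 61.8% and 62.7% of its bases. The peaks of ZNF814 were thus most numerous in hPSC and DE, where many lay on exons outside its longest coding isoform. Each of them also named at least 1 other gene, so reads could not be assigned to ZNF814 alone. ZNF544 had 7, 8, 9, 6, 8 and 10 peaks, and its array was wholly covered in every list but PP, where 36.8% was. That coverage came from a single peak of 5148 exonic nt that named 5 genes, and every ZNF544 peak named 2 or more. ZNF160 had 9, 7, 6, 4, 10 and 6 peaks and ZNF480 had 9, 8, 7, 7, 4 and 7.

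ZNF91, which represses SVA retrotransposons and has the longest array among genes with a peak in all 6 lists, had its array covered most widely in hILO among the stages. It had 8, 9, 5, 8, 6 and 9 peaks, and the covered share of its array was 20.3%, 37.9%, 19.4% and 75.2% along the stages, then 97.4% for WT PP and 84.1% for A5-KO PP. ZNF93, which represses LINE-1 elements, had a single peak in hPSC, DE, WT PP and A5-KO PP, none in PP or hILO, and none of its array was covered. The array of ZNF850, the next longest, was covered over 65.3%, 36.3%, 7.72%, 0%, 88.8% and 62.5%, and that of ZNF574 over 49.6%, 35.3%, 23.2%, 31.2%, 65.5% and 51.4%.

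ZNF808 represses MER11 elements, and its loss in humans is known to prevent the pancreas from forming. It had 10, 10, 2 and 3 peaks along the stages, and the array was covered over 58.1%, 51.6%, 0% and 9.73%. In the second batch it had 4 peaks (WT PP) and 3 (A5-KO PP), and 1 peak of 3125 nt and 3100 nt, respectively, covered the whole array in each. Within the stages both the number of peaks and the covered share were lower in PP and hILO than in hPSC and DE. Each ZNF808 peak also named at least 1 other gene, so reads could not be assigned to ZNF808 alone.

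ZNF224, a repressor of the aldolase A gene, went from 7 and 8 peaks in hPSC and DE to 5 in PP and 2 in hILO while the covered share of its array was 60.9%, 77.8%, 82.5% and 98.4%. The array peak of hILO was 1525 nt long, and the longest of hPSC 625 nt. ZNF473, which takes part in the processing of histone pre-mRNA, had 6, 2, 5, 0, 8 and 4 peaks. ZNF331, an imprinted gene, had 5, 3, 4, 2, 5 and 7, and ZNF675, an inhibitor of TRAF6 signalling, had 3, 1, 4, 4, 4 and 6. ZNF146, which consists of fingers alone, had 4, 4, 5, 3, 2 and 3. ZNF274, which recruits SETDB1 to the 3′ ends of zinc finger genes, had 1, 2, 2, 1, 3 and 2 on a short array that was covered over 81.5% or more in each list. ZNF350, which binds BRCA1, had no peak in any list.

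**Figure D2:**
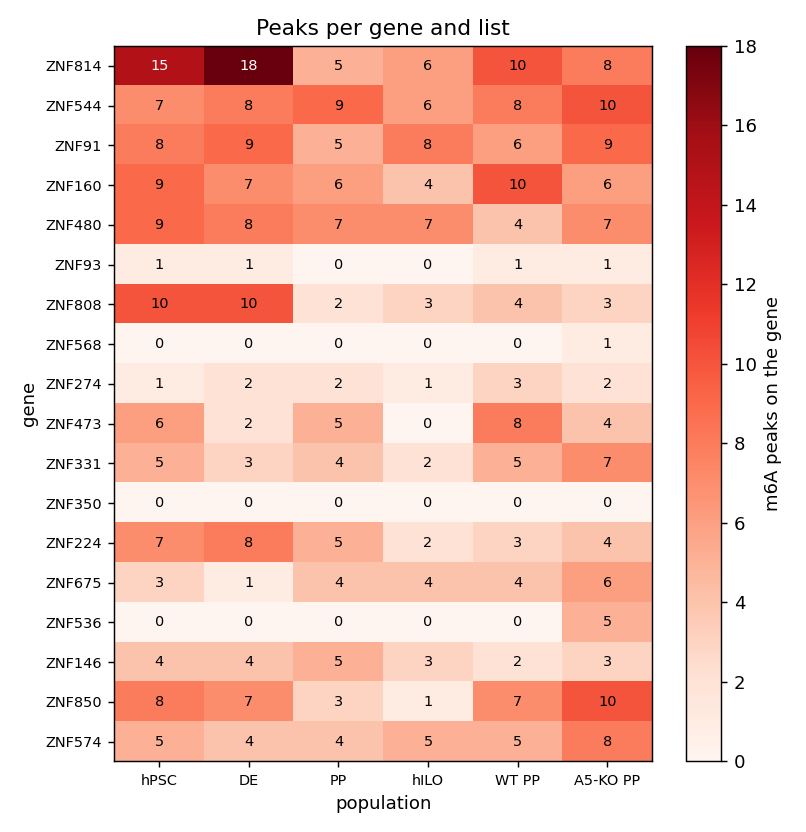
Number of m6A peaks on each named chromosome 19 ZNF gene (rows) in each population (columns), written in the cells and shown as colour. ZNF814 reaches 18 peaks in DE and has 5 in PP, ZNF808 has 10 in hPSC and DE and 2 to 4 elsewhere, and ZNF350 has none.

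Most genes of the silencing pathway had peaks. Of 12 genes of the pathway (TRIM28, SETDB1, ATF7IP, CBX1, CBX3, CBX5, CHD3, CHD4, MORC2, TASOR, MPHOSPH8 and PPHLN1) the numbers with a peak were 12, 11, 12 and 11 along the stages, 11 for WT PP and 12 for A5-KO PP. TRIM28, the corepressor that binds KRAB domains, was the 1 gene missing from DE, hILO and WT PP, and the other 11 had a peak in every list, which 35.1% of all protein-coding genes did.

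The share of peaks found again at the next stage was lowest from DE to PP. A peak was counted once for each member it named, and counted as found again if peaks of the later list on that gene covered over 50% of its exonic bases. From hPSC to DE 544 of 788 peaks of chromosome 19 zinc finger genes were found again (69.0%, 65.7 to 72.2%), beside 53.6% of all peaks on protein-coding genes. From DE to PP 364 of 739 were (49.3%, 45.7 to 52.9%, beside 48.7%), and from PP to hILO 415 of 626 (66.3%, 62.5 to 69.9%, beside 61.9%). From WT PP to A5-KO PP 431 of 686 were (62.8%, 59.1 to 66.4%, beside 50.4%). The DE to PP share was close to that of all genes, and it stood below the 60.4% (57.1 to 63.7%) of ZNF genes on other chromosomes. Under the rule of more than 50% of both peaks the shares were 48.5%, 39.4%, 39.3% and 48.5%. DE and PP then no longer stood apart from PP and hILO. Read backward, 77.3% of the PP peaks (73.9 to 80.4%) were already present in DE, beside 58.1% of all.

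Few genes gained or lost every peak. From hPSC to DE 3 genes lost all peaks and 5 gained their first, beside 14.9% lost and 9.76% gained of all genes. From DE to PP 15 lost (7.9%) and 2 gained, beside 20.4% and 12.6%. From PP to hILO 13 lost and 7 gained, beside 11% and 20.1%. From WT PP to A5-KO PP 4 lost and 24 gained (11.4% of the genes marked in A5-KO PP), beside 8.9% and 18.2%. The members' shares lay below those of all genes at each step. This was not particular to chromosome 19. ZNF genes of other chromosomes lost 5.86%, 6.07%, 5.71% and 3.48% at the 4 steps and gained 2.34%, 4.29%, 5.26% and 7.5%.

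Of the 24 genes with a peak in A5-KO PP and none in WT PP, 21 had no peak in any other list. Among them were ZNF208, ZNF486, ZNF626, ZNF66, ZNF493, ZNF90, ZNF257, ZNF729, ZNF98 and ZNF728 of the pericentromeric cluster. In 18 of the 21 no base of the array was covered, while in ZNF626 and ZNF493 it was covered entirely, by peaks that also named other genes. ZNF536, a repressor of neuronal differentiation that carries no KRAB domain, had 5 peaks in A5-KO PP and none elsewhere, and each of the 5 named another gene too. In 11 of the 21 genes every peak did so. The peak of ZNF568 in A5-KO PP lay outside its longest coding isoform. Whether these genes gained methylation or crossed the calling threshold in a list with 55219 peaks in place of 43312 was not tested. Of all protein-coding genes with a peak in A5-KO PP, 18.2% had none in WT PP, beside 11.4% of the members. The number of all genes with a peak in A5-KO PP alone was not counted.

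The enrichment of single peaks could be compared only in part, because the read columns did not stand on the rows of their peaks through most of each list. Input reads of peaks shared by a pair of lists were compared on the log2 scale. In blocks of 1000 peaks ordered by peak number, they correlated with r between 0.58 and 0.76 in 13 of 37 blocks for hPSC and DE. In the other 24 blocks the median r was 0.19, and in 22 blocks it was highest after the reads had been moved by up to 9 rows. The same test left 3 of 33 blocks for DE and PP, 3 of 31 for PP and hILO and 4 of 48 for WT PP and A5-KO PP. Within a list, the IP reads of peaks followed their width best with no shift of rows in 11 of 24 blocks in hPSC and 8 of 22 in DE. The counts were 2 of 20 in PP, 2 of 21 in hILO and 4 of 31 in WT PP, and a shift was better in the other blocks. In A5-KO PP width and reads were nearly uncorrelated (r at most 0.105 at any shift, and from -0.17 to 0.09 with none), so width tells nothing of the rows of that list. Positions and gene names of the peaks were used throughout. Enrichments of single peaks are therefore given only in the blocks that were in step.

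In those blocks the median enrichment of the members moved by at most 0.17 on the log2 scale between stages. From hPSC to DE 62 pairs of overlapping peaks in 32 genes, with 50 or more input reads in both lists, had a median difference of -0.17 in log2 enrichment (binomial 95% interval -0.23 to -0.03), beside -0.09 over 5157 pairs of all genes. The differences ran from -0.87 to 0.63. From DE to PP 30 pairs in 12 genes had a median of -0.09 (-0.30 to 0.09), beside -0.14 over 1248 pairs. From PP to hILO 30 pairs in 12 genes had a median of 0.04 (-0.02 to 0.23), beside 0.03 over 1553. From WT PP to A5-KO PP only 5 pairs in ZNF175 and ZNF574 were left, with a median of -0.44 and a range of -0.62 to 0.69, too few for an interval. At the 3 steps between stages the interval of the members held the median of all genes. Over all pairs, in step or not, the medians were -0.14 over 216 pairs, -0.12 over 148, -0.03 over 211 and -0.13 over 119, values that mix peaks with reads of their neighbours.

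No difference of a member pair in those blocks reached 1 on the log2 scale. Over all genes 20 of 5157 pairs rose and 13 fell by 1 or more from hPSC to DE, so few could be looked for among the members, and from WT PP to A5-KO PP 125 of 1374 rose and 89 fell. From hPSC to DE a peak in the array of ZNF761 had a log2 enrichment of 2.36 and then 1.49, a difference of -0.87 with a counting error of 0.13, although the DE peak it was paired with spans a longer region and the hPSC peak names a second gene. Another ZNF761 peak of hPSC, of 75 nt and 56 input reads, had 1.45 and also names a second gene. It was paired with a DE peak of 500 nt and 706 input reads at 2.08 (counting error 0.21), so unlike stretches are compared there too. A peak of ZNF256 at the end of its coding sequence had 1.82 and then 2.40, with 64 and 75 input reads. In ZNF317, the peak at the 3′ end of the transcript (chr19:9163252-9163424) had 2.12 in DE, 1.30 in PP and 2.00 in hILO, a fall of 0.82 (counting error 0.25) and a rise of 0.70 (0.24), on 136, 65 and 169 input reads. A neighbouring ZNF317 peak of 225 nt had 1.67 in DE (counting error of the difference 0.20) and was paired with a PP peak of 525 nt at 2.15, which also spans another DE peak, so unlike stretches are compared there. In ZNF780B a peak listed with 2 other genes had 1.80 in hPSC and 1.22 in DE. From WT PP to A5-KO PP 1 array peak of ZNF574, of 450 nt, had 3.73 and was paired with a peak of 175 nt at 3.11, so unlike stretches are compared. Another ZNF574 array peak had 2.77 and then 3.46. A peak of ZNF175 had 5.51 (950 nt) and then 5.00 (1225 nt). In ZNF331 a peak after the stop codon had 1.37 in DE and 1.97 in PP. In ZNF576 a DE peak of 525 nt after the stop codon had 2.38 and was paired with a PP peak of 275 nt at 1.57. Another PP peak lies on the same DE peak, and each of these names a second gene. In ZNF227 an array peak had 1.14 in PP and 1.66 in hILO. With 1 value per population, none of these can be set against a spread between cultures.

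Sequence shared between duplicated genes bears on the assignment of some peaks. Of the member peaks in the 6 lists together, 1472 of 4028 (36.5%) named several genes, among them 113 that named 2 members. Between 2.90% and 5.97% of the peaks long enough to be searched (between 399 and 592 a list) held a stretch of 100 nt found identically at another locus, among them those of ZNF417 (17 of 28 peaks), ZNF587 (13 of 21) and ZNF443 (11 of 15). Peaks also had a low GC content, with medians between 41.1% and 42.4% against 46% to 50.4% over all genes. As a check of the labels, INS, GCG and SST had peaks in hILO only, PDX1 and NKX6-1 in PP, hILO, WT PP and A5-KO PP, SOX17 in DE, WT PP and A5-KO PP, and POU5F1 and NANOG in hPSC and DE. FOXA2 and GATA6 had peaks in every list but hPSC and SOX9 in every list but DE, while SOX2 had none.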

How the data were processed

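m6A-seq was carried out on 24 libraries, 2 IP and 2 input for each of 6 populations. Before deposit the authors used fastp for trimming, HISAT2 for alignment (GRCh38) and exomePeak2 for peak calling, giving 1 list per population over its libraries together. The deposited lists give peak positions, gene IDs, IP and input read counts, a log2 enrichment and p-values. Whether the deposited counts are sums or means is not stated in the sources used here. No value per library was used, so no test over libraries was possible, the count test that had been planned was not run, and depth per library is unknown.

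Groups were taken from the sample labels. Peaks were reduced to the exons of GENCODE 44 genes and placed by their midpoint on the longest coding isoform. An array ran from the first to the last C2H2 match. Motifs were searched on the transcript strand with overlaps kept. Shares carry Wilson 95% intervals. Enrichment differences are the later minus the earlier deposited log2 value, for pairs with 50 or more input reads in both lists. Because the read columns were displaced by rows, these were read only in blocks of 1000 peaks where input reads of shared peaks correlated best with no shift (up to 15 rows tried) and with r of 0.5 or more, a choice made after seeing the data. The count with single-gene peaks was extended to all genes after seeing the data. Named genes were the 5 with the most peaks, the 2 largest rises and falls per transition in those blocks, 12 genes of known role and the 3 longest arrays with a peak in all 6 lists. The members and lists were chosen with earlier results of these data known. Scripts were tested on simulated data and used Python 3.11.15, NumPy 2.4.6, pandas 2.3.3 and SciPy 1.17.1.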

Additional observations from a re-analysis of the deposited data

How the results depend on the processing

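No paired analysis was possible because each population has 1 list over its libraries together, and for the same reason no replicate could be left out. Of 76 alternatives, 43 stayed close to the reported value and 33 did not. Of 16 alternatives to the median enrichment differences, 4 had the other sign than the median over all pairs. With only peaks that name a single gene, 122, 123, 115, 108, 124 and 131 genes had a peak, from hPSC to A5-KO PP. With p below 1e-05, the share of genes with 2 or more peaks was 75.9%, 77.9%, 73.7%, 82.5%, 69.0% and 68.0% from hPSC to A5-KO PP, which turned the place of hILO among the stages. With peaks less than 100 nt apart merged it was 79.3%, 80%, 79.7%, 73.7%, 75.3% and 66.7% in the 6 lists. Counted by exonic bases, the last exon held 94.0% in hPSC, 94.8% in DE, 96.3% for WT PP and 92.7% for A5-KO PP. Any overlap gave 78.2%, 62.2%, 73.5% and 71.0% of peaks found again at the 4 steps, and more than 50% of both peaks gave 48.5%, 39.4%, 39.3% and 48.5%. Over pairs of all rows, the median enrichment difference from DE to PP was 0.0079 with at least 200 input reads (33 pairs). From PP to hILO it was 0.33 with centred ratios of counts and 0.04 in the blocks in step, against -0.03. From WT PP to A5-KO PP it was 0.71 with no minimum of reads (431 pairs) and -0.45 with centred ratios. The cause of these moves was not tested. Results by p or by enrichment rest on the displaced read columns.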
